A study of Mus musculus with 9 samples.

Results

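Zpld1 encodes zona pellucida-like domain containing 1, and it was 1 of the 46078 genes counted in whole ovaries of wild-type (WT) mice and mice without estrogen receptor β (ERβKO). It was selected on its measured levels in these same ovaries, hardly any signal in WT and a clear one in ERβKO. Its genotype difference is therefore given as a description, with no test. The name was matched to a single gene identifier, ENSMUSG00000064310, in both the counts and the expression estimates.

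The RNA-seq data came from ovaries of 5 WT and 4 ERβKO mice of the C57BL/6J strain, with 1 library per mouse, all labelled as untreated. The ERβKO animals carried a germline deletion of exon 3 of Esr2, the ERβ gene, made by crossing floxed mice with a Rosa26-Cre deleter line, and the WT animals were offspring without Cre. All mice of the study were 4 to 20 weeks old, and the age of each ovary is not given in the sources used here. Collection was not timed to the estrous cycle. The labels' general text also describes a high-fat or control diet and injections of an ERβ agonist, without saying which diet any of these animals received.

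Zpld1 belongs to the zona pellucida (ZP) domain family, in which many proteins polymerize through this shared domain into extracellular filaments and matrices. The egg coat proteins Zp1, Zp2 and Zp3 are among the family's members in the ovary, and uromodulin in urine and the tectorins in the inner ear use the same fold. Zpld1 protein is known as cupulin, a component of the gelatinous cupula over the sensory hair cells of the semicircular canals. It is made as a membrane-anchored precursor that proteases can release.

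The gene lies on the minus strand at chr16:55225175-55297986 of GRCm38, and the span in the deposited files equals that of GENCODE vM21. GENCODE lists 2 protein-coding transcripts. The shorter has 12 exons with 2589 exonic bases, and the longer adds an upstream first exon for a total of 13 exons and 2697 bases. Both hold the same coding length of 1245 bases, or 415 codons. No other annotated gene overlaps Zpld1 on either strand, so its count does not depend on how reads from overlapping genes were assigned. The deposited values are per gene and do not separate the 2 transcripts.

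Because a gene near silence in one genotype raises the question of its start site, the bases before the RefSeq start of the shorter transcript are shown, in the direction of transcription (chr16:55283284-55283487, minus strand, GRCm38.p6, RefSeq). In the longer transcript the same 204 bases are the end of the first intron, and the capitals mark its last 2 bases, next to the second exon. The GENCODE start of the shorter transcript, at 55283237, lies further downstream than the RefSeq start, so these bases do not adjoin it.

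Zpld1 upstream: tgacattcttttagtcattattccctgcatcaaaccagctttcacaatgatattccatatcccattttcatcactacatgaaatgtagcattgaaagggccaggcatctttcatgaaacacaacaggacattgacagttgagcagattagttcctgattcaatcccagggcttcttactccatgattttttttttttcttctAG

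This window had a GC content of 37.3%, against a median of 51.5% over the 32851 RefSeq windows of the same length and place, of which 8.52% were lower in GC. It held 0 CpG dinucleotides, and the median window held 4. The palindromic estrogen response element GGTCANNNTGACC had no exact match in it on either strand, and neither had its half-site GGTCA, which is contained in the former. Among all windows, 0.0517% held the full element and 30.0% the half-site. The NR5A motif CAAGGTCA, which also contains the half-site, and the GATA motif AGATAA had no match either, with 1.14% and 8.57% of all windows holding them. These letters are absent from this window only, and nothing follows from that for binding elsewhere.

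Expression was read on 2 scales, the fragments counted per gene and FPKM, the fragments per kilobase of gene scaled to the number mapped in the library. In WT ovaries, 9, 20, 4, 14 and 17 fragments were counted on Zpld1 in replicates 1 to 5. In ERβKO ovaries the counts were 230, 568, 619 and 430 in replicates 1 to 4. The genotypes did not overlap, and the ERβKO ovary with the fewest fragments held more than all WT ovaries together, which summed to 64 fragments. In a whole ovary, a change in the number of cells that make a transcript and a change in the RNA of each cell cannot be told apart.

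Scaled to FPKM, Zpld1 measured 0.177, 0.272, 0.0861, 0.232 and 0.258 in the WT ovaries, in the order of their replicate numbers. The ERβKO ovaries gave 3.44, 7.59, 11.5 and 8.18 FPKM in the same way. The WT ovaries averaged 0.205 ± 0.0756 FPKM (SD, n = 5) and the ERβKO ovaries 7.67 ± 3.29 FPKM (SD, n = 4), a ratio of 37.4. The lowest ERβKO ovary was 12.7 times the highest WT ovary. The fitted log2 fold change of ERβKO over WT from the counts was 5.09 with a standard error of 0.43. Of the 16722 genes that passed the filter on low counts, none had a higher fitted log2 fold change. The next were Prok2 at 2.90 and Drd4 at 2.79.

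**Figure D1:**
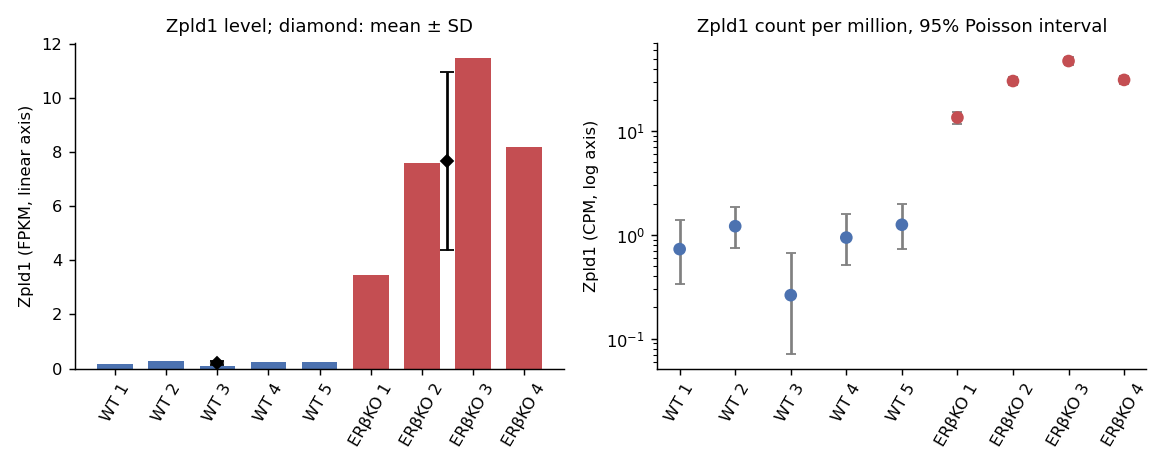
Zpld1 in each of the 9 ovaries, WT in blue and ERβKO in red. Left, the FPKM of each ovary as a bar on a linear axis, with the mean and SD of each genotype as a diamond with bars. Right, the CPM (counts of Zpld1 scaled to the library total) on a log axis with exact 95% Poisson intervals, where the WT ovaries lie between 0.262 and 1.25 and the ERβKO ovaries between 13.5 and 47.3.

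Zpld1 was chosen as nearly absent in WT from these same values, so they do not check that label. Each WT library still held some fragments. In CPM, the count scaled to the library total, the WT level summed over the 5 libraries was 0.882, with an exact 95% Poisson interval of 0.679 to 1.13. In ERβKO it was 29.5, with an interval of 28.2 to 30.9. These intervals cover counting error only. Among the genes with any FPKM in a library, 9.47% to 20.2% lay below Zpld1 in WT ovaries. In ERβKO ovaries 49.6%, 64.8%, 74.3% and 66.1% of such genes lay below it in replicates 1 to 4, so that the gene moved from the bottom of the expressed range to its middle or above.

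The ERβKO ovaries also differed among themselves. Replicate 3 was highest at 47.3 CPM (95% interval 43.6 to 51.2), and replicate 1 was lowest at 13.5 (11.8 to 15.4). Replicates 2 and 4 lay between them at 30.4 (27.9 to 33.0) and 31.1 (28.2 to 34.2), with intervals that overlapped each other and neither of the extremes. The highest ERβKO ovary was 3.33 times the lowest in FPKM, a coefficient of variation of 42.9%. In WT, the interval of replicate 3, 0.0715 to 0.671 CPM, lay below those of replicate 2, 0.740 to 1.87, and replicate 5, 0.729 to 2.00. All other WT intervals overlapped.

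Counts and FPKM came from separate programs and gave the same picture for this gene. The ratio of CPM to FPKM was 3.80 to 4.13 in ERβKO libraries and 3.04 to 4.85 in WT libraries, where few fragments were counted.

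The libraries held 12353740 to 18717510 counted fragments. Esr2 was listed at 12.4 to 23.9 FPKM in WT and at 10.5 to 23.7 FPKM in ERβKO, with a log2 fold change of -0.02 ± 0.24 (SE). The value covers the whole gene and includes the exons left in the knockout allele, so it does not check the genotype labels. The ovary markers were present: the summed level of the 10 granulosa cell genes was 581 to 728 FPKM in WT and 770 to 1042 FPKM in ERβKO. On the first principal component, which held 35.9% of the variance, WT replicate 2 scored 9.43, nearer to the ERβKO scores of 19.4 to 35.4 than to the other WT scores of -43.8 to -15.6. That ovary also had the highest Zpld1 count and FPKM of the 5 WT ovaries, 20 fragments and 0.272 FPKM, and without it the log2 fold change was 5.24. Over all tested genes, 1.72% were differentially expressed genes (DEGs) and 0.915% were DEGs with a higher level in ERβKO, with an adjusted p under 0.05 by edgeR's quasi-likelihood test, a log2 fold change beyond 0.4 in size and a mean over 1 FPKM in at least 1 genotype.

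The chromosomal neighbours of Zpld1 were examined next, to see whether the genes around it moved with it. Within 1000000 bases of its start, 19 other genes started, of which 9 are protein-coding and the rest are mostly small RNA genes. Zpld1 stood alone: the nearest coding gene on the higher side was Nfkbiz, 513 kb away, and on the lower side Alcam, 2771 kb away and beyond the window. Counts sufficed for a test of 10 neighbours, and 8 of the 19 had no count in any library.

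Of the 10 tested neighbours, 0 were DEGs by edgeR's quasi-likelihood test, against 1.72% of all genes, and 0 had an unadjusted p under 0.05, against 19.8% of all genes. DESeq2 and limma also gave 0. Their log2 fold changes ran from -0.29 to 0.13, with standard errors of 0.06 to 0.34, and 5 were positive and 5 negative. Each was far from the 5.09 of Zpld1.

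Nfkbiz encodes an inhibitor-type protein that modulates NF-κB target genes in the nucleus. WT replicates 1 to 5 measured 3.45, 3.30, 2.56, 4.45 and 3.25 FPKM. ERβKO replicates 1 to 4 measured 3.26, 4.21, 3.09 and 3.50 FPKM. The ranges overlapped, and the log2 fold change was 0.03 ± 0.13 (SE). The gene with the nearest start beyond it, Nxpe3, was low in every ovary, at 0.305 to 0.510 FPKM in WT and 0.247 to 0.447 FPKM in ERβKO.

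Cep97, a centriolar protein that restrains cilium assembly, was at 3.38 to 4.05 FPKM in WT and 2.89 to 4.52 FPKM in ERβKO, a log2 fold change of 0.11 ± 0.10 (SE). Senp7, a protease that trims SUMO chains, was at 7.81 to 8.35 FPKM in WT and 7.18 to 8.22 FPKM in ERβKO. Both genes had overlapping genotypes. The zinc finger gene Zbtb11 was at 4.36 to 5.39 FPKM in WT and 4.11 to 5.93 FPKM in ERβKO. Trmt10c, a subunit of mitochondrial RNase P, was at 7.31 to 8.09 FPKM in WT and 7.13 to 7.57 FPKM in ERβKO. These also overlapped, as did the antisense gene Zbtb11os1, which was at 0.606 to 1.20 FPKM in WT and 0.717 to 1.03 FPKM in ERβKO.

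Pcnp was the only tested neighbour whose FPKM did not overlap between the genotypes, at 49.6 to 51.7 FPKM in WT and 52.6 to 58.4 FPKM in ERβKO. Over all tested genes 7.61% had FPKM values that did not overlap. The counts gave Pcnp a log2 fold change of 0.05 ± 0.06 (SE), and edgeR's adjusted p was 0.708. Impg2, at the far edge of the window and best known for a matrix proteoglycan of the retina, stayed at 0.193 FPKM or less in every ovary.

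Rpl24, a ribosomal protein gene, had only 6 to 33 fragments counted per library although its deposited FPKM was 312 to 374. It overlaps the gene Gm28037, which had no count in any library, so its fold change from counts of 0.13 ± 0.34 (SE) is uncertain. Its FPKM overlapped between the genotypes, at 323 to 374 in WT and 312 to 344 in ERβKO.

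**Figure D2:**
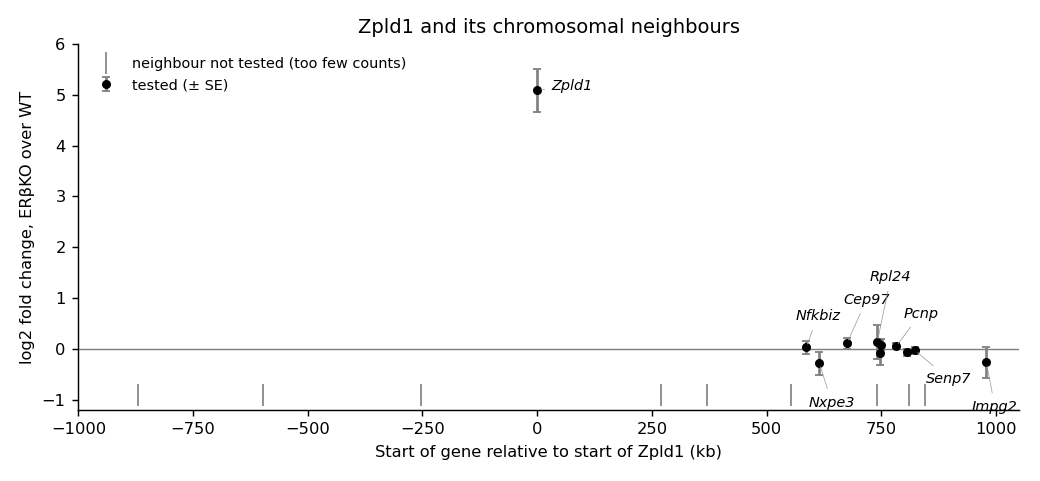
Log2 fold change of ERβKO over WT, with its standard error, for Zpld1 and the 10 tested neighbours, against the distance of each gene's start from that of Zpld1 in kb. Zpld1 is at 5.09 and the neighbours lie between -0.29 and 0.13, all of them on the right side, while ticks below 0 mark the positions of 9 neighbours that had too few counts for a test.

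The other genes with a ZP domain were compared with Zpld1 from a list of 14. After the filter on low counts 9 could be tested. By edgeR's quasi-likelihood test 0 were DEGs, against 1.72% of all genes, and 2 of the 9 had an unadjusted p under 0.05, against 19.8% of all genes. DESeq2 and limma also gave 0. The median log2 fold change of the 9 was 0.29, and that of all tested genes was -0.001.

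The egg coat genes were the most abundant of the family together with the TGFβ co-receptors. For Zp1, WT replicates 1 to 5 gave 6.64, 6.12, 10.6, 7.52 and 3.37 FPKM, and ERβKO replicates 1 to 4 gave 10.8, 7.08, 6.75 and 10.3 FPKM. Its log2 fold change was 0.32 ± 0.26 (SE). Zp2 was at 7.25 to 26.5 FPKM in WT and 16.6 to 28.7 FPKM in ERβKO, and Zp3 at 5.85 to 17.7 and 13.2 to 20.2 FPKM. Their log2 fold changes were 0.44 ± 0.28 and 0.48 ± 0.26 (SE), and the genotypes overlapped for all 3 genes.

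The order of the ERβKO ovaries differed between the egg coat genes and Zpld1. Zp1, Zp2 and Zp3 were highest in replicate 1, the ovary with the least Zpld1, and all 3 were lowest in replicate 3, the ovary with the most. The same was seen in the summed level of 10 oocyte genes, which was 164 FPKM in ERβKO replicate 1 and 87.9 FPKM in replicate 3. That list includes Zp1, Zp2 and Zp3, so its sum is not separate from them. Gdf9 alone gave 53.3 FPKM of it in replicate 1. Of the 9 oocyte genes tested, 0 were DEGs by edgeR, DESeq2 or limma, and 0 had an unadjusted p under 0.05 by edgeR. The shares over all genes by edgeR were 1.72% and 19.8%. All 9 had a positive log2 fold change, with a median of 0.42.

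Among the TGFβ co-receptors with a ZP domain, Eng, or endoglin, which is found on endothelial cells, was at 9.78 to 14.1 FPKM in WT and 11.1 to 12.1 FPKM in ERβKO. Tgfbr3, or betaglycan, which also binds inhibin, was at 14.7 to 19.0 FPKM in WT and 17.9 to 19.9 FPKM in ERβKO, with a log2 fold change of 0.16 ± 0.07 (SE) and an adjusted p of 0.250 by edgeR. Tgfbr3l was at 4.49 to 7.83 FPKM in WT and 5.74 to 10.2 FPKM in ERβKO.

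The remaining members were low. Oit3 had the highest log2 fold change of the list after Zpld1, 0.99 ± 0.32 (SE), but its adjusted p by edgeR was 0.126 and its mean stayed under 1 FPKM in both genotypes. Umodl1 was at 0.509 to 1.07 FPKM in WT and 0.796 to 1.10 FPKM in ERβKO. Umod, or uromodulin, was listed at 0 in every ovary. Gp2, Tecta and Tectb stayed at 0.530 FPKM or less in every ovary. Cuzd1 and Dmbt1 were at 0.208 FPKM or less, except Cuzd1 in WT replicate 3 and ERβKO replicate 2 and Dmbt1 in WT replicate 3.

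**Figure D3:**
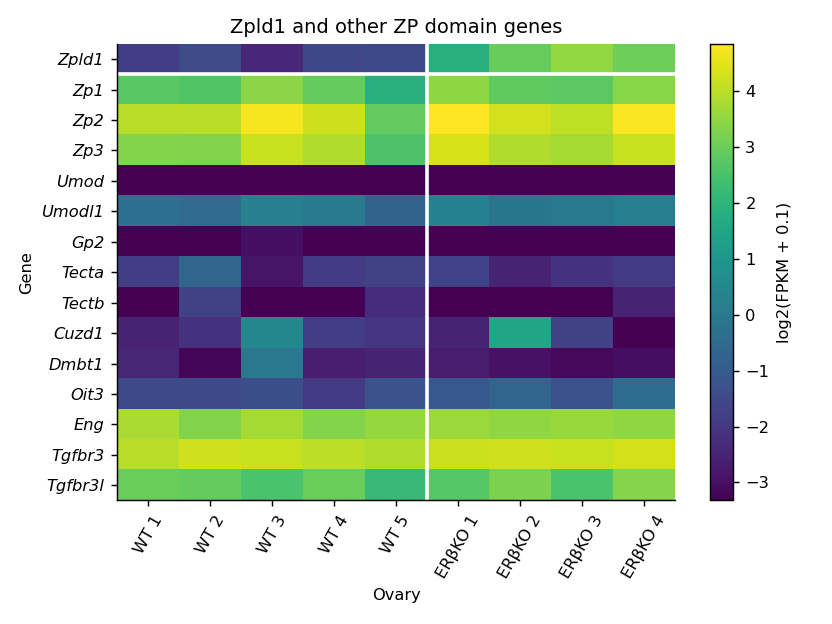
Level of Zpld1 (top row) and 14 other ZP domain genes (rows) in each of the 9 ovaries (columns), as log2(FPKM + 0.1), where brighter colors mean a higher level and the white line separates WT from ERβKO. Zpld1 is dark in the 5 WT ovaries and bright in the 4 ERβKO ovaries, whereas the egg coat genes, Eng, Tgfbr3 and Tgfbr3l are bright in both.

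The extracellular matrix genes of the inner ear, where Zpld1 is best known, were near 0 FPKM in both genotypes. Of 9 such genes, 2 had counts enough for a test, Strc and Tecta. Of these 0 were DEGs by edgeR, DESeq2 or limma, where the share over all genes was 1.72% by edgeR, and 0 had an unadjusted p under 0.05 by edgeR. With 2 genes these counts say nothing about the list. The summed level of the list was 0.220 to 0.872 FPKM in WT and 0.450 to 0.738 FPKM in ERβKO. Otol1 had no count in any library, and Otog and Ceacam16 were listed at 0 FPKM in every ovary.

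Proteases known to cleave ZP domain precursors or the egg coat were present in every ovary. All 6 were tested, and 0 were DEGs by edgeR, DESeq2 or limma, with 0 at an unadjusted p under 0.05 by edgeR. The shares over all genes by edgeR were 1.72% and 19.8%, so with 6 genes these counts say little about the list. Furin, a proprotein convertase of the secretory pathway, was at 14.0 to 16.2 FPKM in WT and 12.2 to 14.6 FPKM in ERβKO, a log2 fold change of -0.14 ± 0.07 (SE). Astl, the ovastacin that cleaves Zp2 after fertilization, was at 1.34 to 4.51 FPKM in WT and 3.02 to 4.74 FPKM in ERβKO.

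Marker genes of cell types in or near the ovary were counted against the shares over all genes, 0.915% for DEGs with a higher level in ERβKO and 19.8% for an unadjusted p under 0.05, and their part in the level of Zpld1 was not tested. Of the 10 granulosa cell genes, 4 had an unadjusted p under 0.05 by edgeR. Inhbb and Hsd17b1, 2 of the 10, were DEGs with a higher level in ERβKO, and DESeq2 called 4, adding Fshr and Inha. Only Inhbb was called without WT replicate 1, 4 or 5 or ERβKO replicate 2, 3 or 4 and in the libraries numbered below 200, and Hsd17b1 was also lost without ERβKO replicate 1. Of the 10 genes marking Sertoli cells, the supporting cells of the testis, 8 were tested and 7 had an unadjusted p under 0.05 by edgeR. Those called as DEGs with a higher level in ERβKO were 4: Dhh, Gata1, Aard and Rhox8. The count was 2 without WT replicate 1, 4 or 5 or ERβKO replicate 3, and 2 by limma. It was 1 (Gata1) without ERβKO replicate 2 or 4, and 0 in the libraries numbered below 200. DESeq2 called 5, adding Cldn11, and edgeR called 5 without WT replicate 2, adding Sox9. Of the 8 tested, 7 had a positive log2 fold change, and the median was 1.05. The sum of this list was 340 to 467 FPKM in WT and 405 to 600 FPKM in ERβKO. Most of it was Clu, at 319 to 447 FPKM in WT and 374 to 548 FPKM in ERβKO. The sum therefore says little about the other genes of the list. Dmrt1, another gene of the list, was at 0 FPKM in every ovary, with 1 and 3 fragments counted in ERβKO replicates 1 and 2. Sox9, also on the list, was above 1.2 FPKM in every ovary. Its log2 fold change was 0.77 ± 0.29 (SE), with an adjusted p of 0.179 by edgeR.

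Of 8 theca cell genes 7 were tested, and 3 of these had an unadjusted p under 0.05 by edgeR. Only 1 was a DEG with a higher level, Aldh1a1, a call lost without ERβKO replicate 2 or 4 and in the libraries numbered below 200. The list summed to 960 to 1556 FPKM in WT and 1375 to 2299 FPKM in ERβKO. Aldh1a1 alone was at 424 to 620 FPKM in WT and 761 to 1276 FPKM in ERβKO. Of the 7 tested genes, 4 had a positive and 3 a negative log2 fold change, with a median of 0.03. The theca sum therefore says little about the other genes of its list. Among Schwann cell genes, Mbp was lower in ERβKO, a call lost without WT replicate 1 or 5 or ERβKO replicate 1, 2 or 4 and in the libraries numbered below 200. Sox10 and Foxd3, which define those cells, were at 0.1 FPKM or less in every ovary. Adipocyte genes summed to 139 to 267 FPKM in WT and 158 to 1033 FPKM in ERβKO, with 0 of 8 DEGs by edgeR and limma, 3 by DESeq2, and 8 of 8 with an unadjusted p under 0.05 by edgeR. Without ERβKO replicate 4 edgeR called 2 of them. The ovary with the highest sum was replicate 1, which had the lowest Zpld1 of its genotype.

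Luteal cell genes summed to 2775 to 6483 FPKM in WT and 2538 to 3782 FPKM in ERβKO, with 0 of 9 DEGs by edgeR and limma and 5 of 9 with an unadjusted p under 0.05. DESeq2 called 3 of them lower, and so did edgeR for 4 when WT replicate 2 was left out. Genes of the oviduct epithelium, which adjoins the ovary, summed to 1427 to 2589 FPKM in WT and 1671 to 2138 FPKM in ERβKO. These ranges overlapped. Those of the ovarian surface epithelium summed to 181 to 279 and 244 to 285 FPKM. Macrophage genes summed to 196 to 369 and 240 to 392 FPKM, and endothelial genes to 75.6 to 95.3 and 76.8 to 90.8 FPKM. The last 4 lists held 0 DEGs by edgeR, DESeq2 or limma, with 2 of 8, 1 of 8, 0 of 7 and 1 of 6 genes at an unadjusted p under 0.05 by edgeR. Without WT replicate 2, edgeR called 1 oviduct gene higher, Foxj1.

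To see how often a gene showed the pattern of Zpld1, all 46072 genes with FPKM values were searched for those under 1 FPKM in every WT ovary, higher in every ERβKO ovary than in any WT ovary, and over 2 FPKM on average in ERβKO. The search returned 8 genes including Zpld1, or 0.0174%. With the genotypes exchanged it returned 5 genes, or 0.0109%. The values that choose these genes are descriptions and were not tested.

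Serpina3a, a serine protease inhibitor of a cluster of close copies, was at 0.239 to 0.989 FPKM in WT and 1.15 to 2.92 FPKM in ERβKO. The genotypes lay close together for both this gene and Gm14085. The latter was at 0.161 to 0.887 FPKM in WT and 1.19 to 3.57 FPKM in ERβKO, with a log2 fold change of 2.16. The immunoglobulin light chain segments Igkv8-28 and Igkv2-109 had 0 FPKM in 4 of 5 WT ovaries and 0.480 to 6.25 and 0.568 to 7.95 FPKM in ERβKO, and segments of this family share sequence, so their counts are uncertain.

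For Gm3052 and Pcdhga8 the deposited counts and FPKM differed. Gm3052 was at 0.352 to 0.692 FPKM in WT and 9.00 to 10.6 FPKM in ERβKO, yet its counts were 14 to 37 and 21 to 32 fragments, with a log2 fold change of 0.02. Pcdhga8 was at 14.6 FPKM in ERβKO replicate 1 and at 0.579 FPKM or less in the other 8 ovaries, with 20 to 58 fragments in every library. Dnah14, a dynein heavy chain gene, was the last of the 8, at 0.361 to 0.874 FPKM in WT and 0.991 to 3.10 FPKM in ERβKO. Its counts overlapped, at 7 to 42 fragments in WT and 27 to 58 in ERβKO, with a log2 fold change of 0.725 ± 0.352 (SE).

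The 5 genes of the exchanged search, named after their values were seen, were Mmel1, Ssu2, Adcyap1, Cabp1 and RP23-338P12.2. Mmel1, a membrane metalloendopeptidase, reached 10.9, 0.732, 2.24, 9.98 and 21.8 FPKM in the WT ovaries in replicate order. The ERβKO ovaries had 0.0863, 0.0924, 0.557 and 0.314 FPKM. Its log2 fold change was -5.22 ± 1.06 (SE). In contrast to Zpld1, its values ranged widely within the WT group, and replicate 2 was lowest.

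**Figure D4:**
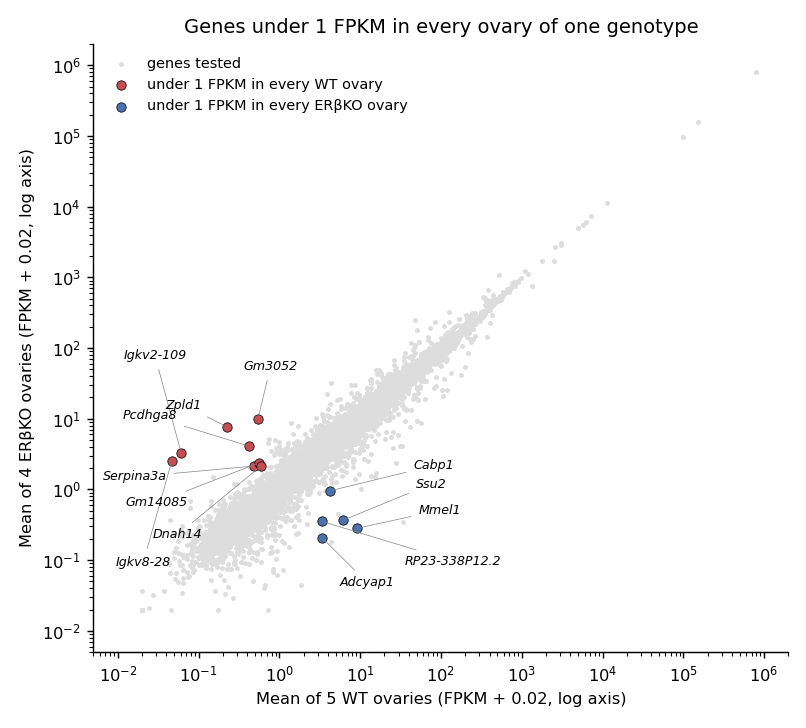
Mean FPKM of the 4 ERβKO ovaries against that of the 5 WT ovaries, each plus 0.02, on log axes, for the tested genes in grey. The 8 genes under 1 FPKM in every WT ovary are red and the 5 genes under 1 FPKM in every ERβKO ovary are blue, and Zpld1 has 0.205 on the WT axis and 7.67 on the ERβKO axis, before the 0.02 is added.

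Genes whose pattern over the 9 ovaries was most like that of Zpld1 were ranked by Pearson's r of log2(CPM + 1), with CPM scaled by TMM, against the 16721 other tested genes. The ovaries share the genotype split, which sets much of such an r, and the same 9 libraries supply both genes, so the values are descriptions. Of the genes compared, 110 had an r over 0.9. Of the 10 closest, 9 are described here, with an r of 0.964 to 0.983: Lrrc16b, Prr12, Plxnc1, Serpina3c, Klc2, Sesn2, Sptb, Mamld1 and Drd4. No chromosomal neighbour exceeded 0.415 and no ZP domain gene 0.711, and Esr2 had an r of -0.097.

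Serpina3c, a serine protease inhibitor, was at 2.58 to 4.85 FPKM in WT and at 9.24, 22.7, 26.0 and 31.1 FPKM in ERβKO replicates 1 to 4, so that replicate 1 was the lowest of its genotype, as for Zpld1. Drd4, a dopamine receptor, was at 0.384 FPKM or less in WT and at 0.644, 1.59, 2.02 and 1.73 FPKM in ERβKO replicates 1 to 4, the same order of ovaries as Zpld1.

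Plxnc1, a semaphorin receptor, was at 12.9 to 14.5 FPKM in WT and 27.5 to 44.3 FPKM in ERβKO. The kinesin light chain gene Klc2 was at 22.8 to 25.5 FPKM and 33.7 to 42.9 FPKM, and Mamld1 at 17.5 to 18.4 and 25.4 to 39.3 FPKM. Lrrc16b and the spectrin gene Sptb followed, with log2 fold changes of 1.03 and 1.08, and Sesn2 with 0.60. Prr12 was the exception among the 9, with a log2 fold change of 0.31 that did not pass the size criterion. Zpld1 had a larger log2 fold change than all of them.

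**Figure D5:**
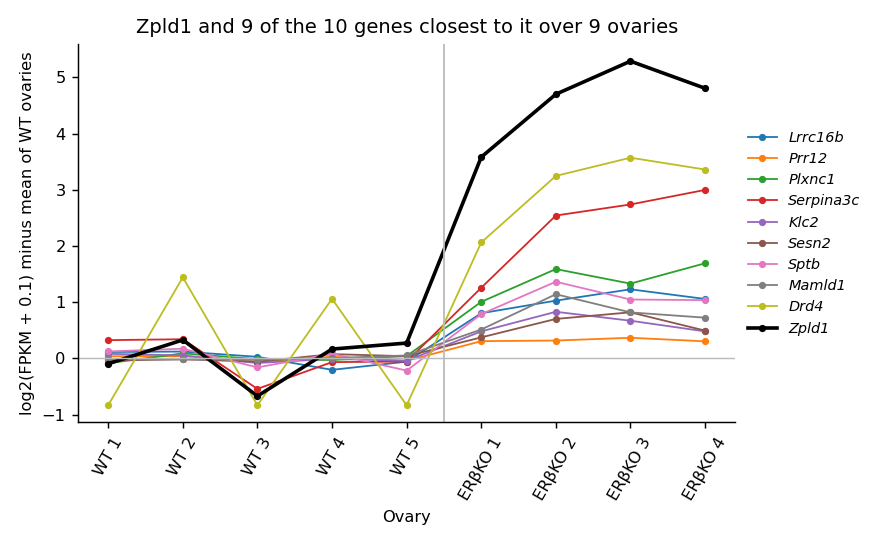
Level of Zpld1 (black) and 9 of the 10 genes with the highest r (colors) in each of the 9 ovaries, as log2(FPKM + 0.1) minus the mean of the WT ovaries. Zpld1 stands highest in all 4 ERβKO ovaries, with its peak in replicate 3, and all 9 genes lie above 0 there.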

How the data were processed

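RNA-seq of 9 mouse ovaries (5 WT, 4 ERβKO) was analysed from the deposited files. Per the study's methods and the submitters' processing notes, stranded poly-A libraries were demultiplexed with bcl2fastq 2.20.0.422, trimmed with Trim Galore, mapped with STAR to mm10 (GRCm38), counted with featureCounts and quantified with StringTie. The deposited counts are the authors' raw fragment counts per gene; whether counting used the strand is not given in the sources used here. The deposited FPKM and TPM values are the authors' StringTie estimates, scaled to library size and gene length, and the coverage values the authors deposited beside them were not used for a result. Replicates were not pooled.

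Counts of 46078 genes were filtered with filterByExpr (16722 kept), scaled by TMM and fitted by genotype with edgeR 4.0.16 in R 4.3.3 (quasi-likelihood test, Benjamini-Hochberg adjustment over all tested genes). The study's thresholds defined DEGs: adjusted p under 0.05, log2 fold change beyond 0.4 either way, mean over 1 FPKM in either genotype. DESeq2 1.42.0 and limma 3.58.1 were alternatives, limma on log2(FPKM + 1) and log2(FPKM + 0.1). Tables were handled in Python 3.11.15. Tests were tried on simulated counts. Each pair of libraries differed by more than sampling noise. Nothing states that ovaries came from separate litters or days, so p-values measure the spread between these mice. Each library's 12353740 to 18717510 fragments set the counting error, given as exact 95% Poisson intervals.

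Zpld1 and the gene lists were chosen with earlier results of these data known. Named genes are Zpld1, Esr2, all neighbours starting within 1000000 bases, 3 lists (ZP domain, inner ear matrix, proteases), the 10 genes most correlated with Zpld1, and at most 10 genes with its off-on pattern. Where a symbol had a second identifier without counts (Rhox8), the counted one was used. Upstream sequence is from RefSeq GRCm38.p6, with transcripts from GENCODE vM21. Alternatives also changed size factors, filters, libraries and the replicate block. The study's chromatin data were not used here. Values of 1 gene are not reported here.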

Additional observations from a re-analysis of the deposited data

Results flagged for a closer look

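For part of the genes named with Zpld1, 61 groups of 4 or 5 ovaries were checked (only groups with a value over 0.5 FPKM). By Dixon's test 5 held an ovary far from the others, and chance flags about 1 in 20. Zpld1 itself had none. Not among the 5 are Pcsk5, at 20.15 FPKM in WT replicate 3 against 8.55 to 11.65 FPKM in the other WT ovaries, and Pcdhga8, described above. Cuzd1, a ZP domain gene of the pancreas and uterus, was at 1.26 FPKM in WT replicate 3, against 0.0703 to 0.180 FPKM in the other WT ovaries, and at 2.75 FPKM in ERβKO replicate 2, against 0 to 0.208 FPKM. Dmbt1, a ZP domain gene of mucosal epithelia, was at 0.840 FPKM in the same WT replicate 3, against 0.00785 to 0.0826 FPKM. Gm28037, which overlaps Rpl24, was at 1.55 FPKM in ERβKO replicate 1, against 0 to 0.0258 FPKM. The small nucleolar RNA gene Gm22422 was at 0.512 FPKM in ERβKO replicate 2 and listed at 0 in the other 3.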

How the results depend on the processing

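The log2 fold change of Zpld1 stayed between 4.59 and 5.35 in every alternative but limma on log2(FPKM + 1), where it was 2.76, since a pseudocount of 1 lies above every WT value. Leaving out each ovary gave 4.79 to 5.34. No neighbour and no ZP domain gene became a DEG in any alternative, with 0 in the fits that left out an ovary. The number of DEGs, 287, was 803 with DESeq2 and 51 in the libraries numbered below 200, which leave out WT replicates 4 and 5. Leaving out each ovary gave 60 to 919 DEGs: 118, 919, 161 and 110 without WT replicates 1, 2, 4 and 5, and 60, 152 and 80 without ERβKO replicates 2, 3 and 4; the cause was not tested. Replicate numbers did not pair the ovaries (correlations of -0.043 to 0.13 between same-numbered ovaries), and with the replicate block there were 155 DEGs and a Zpld1 log2 fold change of 5.20, and 1 granulosa, 2 Sertoli and 0 theca cell genes were called higher. The off-on search returned 4 genes with every WT ovary under 0.5 FPKM, 29 with an ERβKO mean over 1 FPKM and 2 with a mean over 5 FPKM, Zpld1 among them each time. Spearman's rho shared 1 and log2(FPKM + 1) 7 of the 10 genes most like Zpld1. With 4 to 20 WT fragments, depth limits the fold change of Zpld1.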
